A study of Mus musculus with 25 samples.

Results

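The genes described here make ribosomes. They are the 38 of 24015 gene symbols in the deposited tables that match Nop, Rrp or Utp followed by a number or Polr1a to Polr1e, together with Ncl, Npm1, Fbl, Dkc1, Ubtf, Rrn3, Bop1, Pes1 and Wdr12. All 38 were present in both the tumour and the cell table, and the choice used symbols only, no measured value. RNA sequencing of mouse basal cell carcinoma gave 17 libraries. The tumours came from C57BL6 mice that were Ptch+/- and p53 fl/fl and carried K14 Cre-ER, in which a tamoxifen-dependent Cre is driven by the keratin 14 promoter of basal keratinocytes. All tumour mice received a Smo inhibitor by oral gavage, also those whose tumours were called sensitive, and 4 sensitive and 4 resistant tumours were sequenced. The cells were ASZ001, 1 cell line that the labels call resistant, with 3 libraries each of vehicle, of CCG-1423, an inhibitor of the SRF coactivators MRTF, and of vismodegib, a Smo inhibitor. The sources used here give no doses, treatment times or ages, and do not name the inhibitor given to the mice.

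Ribosome production starts in the nucleolus, where RNA polymerase I copies the ribosomal DNA into a long precursor with the help of Ubtf, which coats the active repeats, and Rrn3, which brings the polymerase to the promoter. Small nucleolar ribonucleoproteins (snoRNPs) then modify the precursor, the small subunit processome cuts out and folds the small subunit RNA, and a separate set of factors builds the large subunit. In growing cells the transcription factor Myc raises many of these genes through E-box sequences such as CACGTG.

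Members were grouped by role as 7 RNA polymerase I genes, 2 abundant nucleolar proteins, 5 snoRNP proteins, 15 small subunit factors and 9 large subunit factors. Values are normalized counts, which are read counts divided by 1 scaling factor per library. They depend on transcript length, so levels are compared between samples and never between genes. Cell libraries held 30455530 to 44017757 reads at genes, sensitive tumours 8111252 to 14161398 and resistant tumours 17537094 to 20014426. The labels do not say whether replicates are separate animals or cultures, so every p-value below reflects only how much these particular samples varied, which can be technical variation. Sensitive tumour 4 stands apart from sensitive tumours 1 to 3: members took 0.548% of its reads, 0.286% to 0.326% of theirs and 0.411% to 0.469% of those of the resistant tumours. Reads at 4 Y-linked genes numbered 1391 to 2174 in sensitive tumours 1 to 3 and 0 in the other 5 tumours. Without sensitive tumour 4, sex and group therefore cannot be told apart, and tumour results are given with and without it. Leaving it out was chosen with these values known, the members' own among them, so results without it are no independent evidence of direction. Its label was kept, and whether that label is right was not tested. The keratinocyte markers that define the labelled tissue were present, with none of the 6 basal keratinocyte genes at 0 in any group of tumours or cells.

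Promoter windows of 250 bases before to 50 after the annotated start were matched by symbol for 31 of the 38 members in RefSeq (build GRCm38.p6). Fbl, Rrp12, Utp11l, Npm1, Bop1, Utp6 and Utp23 had no window. Ubtf, Wdr12, Rrp1b, Rrp36 and Rrp8 had several annotated starts, each with its own window, and a gene was counted if any of its windows matched. The palindromic E-box CACGTG, which reads the same on both strands, occurred in 7 of the 31 members (22.6%), against 8.09% of 27025 genes with a window and 16 of 89 (17.98%) other ribosome biogenesis genes. It began 60 bases before the start in Nop2, 20 in Utp18, 63 in Utp14b, 208 in Rrp7a, and 215 and 48 in Rrn3, and 2 and 37 bases after it in Pes1 and Utp20. Rrn3 is shown for its pair of E-boxes. It also moved in opposite directions with CCG-1423 and in resistant tumours compared without sensitive tumour 4. Nop2 and Utp18 are shown as genes with an E-box that were higher in both of those comparisons. Pes1 met the same terms and is not shown. None of Rrn3, Nop2, Utp18 and Pes1 passed with all 8 tumours. Of the other members with an E-box, Utp20 was higher and Rrp7a and Utp14b were lower with CCG-1423. Utp14b and Utp14a are shown because these near copies changed most with CCG-1423, in opposite directions. Capitals mark CACGTG, and each window is on the plus strand except that of Utp18, which is on the minus strand.
Rrn3, chr16:13780449-13780748: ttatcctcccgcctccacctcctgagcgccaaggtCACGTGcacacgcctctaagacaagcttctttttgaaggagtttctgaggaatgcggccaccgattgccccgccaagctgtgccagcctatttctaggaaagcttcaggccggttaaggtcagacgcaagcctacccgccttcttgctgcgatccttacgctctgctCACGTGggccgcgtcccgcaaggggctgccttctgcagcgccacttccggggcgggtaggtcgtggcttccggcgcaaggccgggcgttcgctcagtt
Nop2, chr6:125131633-125131932: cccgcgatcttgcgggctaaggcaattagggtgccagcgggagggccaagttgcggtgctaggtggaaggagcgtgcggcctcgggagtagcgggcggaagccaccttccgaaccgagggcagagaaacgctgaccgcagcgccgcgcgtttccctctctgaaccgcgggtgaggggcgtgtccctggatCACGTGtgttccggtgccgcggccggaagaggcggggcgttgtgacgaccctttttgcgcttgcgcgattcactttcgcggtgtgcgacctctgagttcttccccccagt
Utp18, chr11:93885717-93886016: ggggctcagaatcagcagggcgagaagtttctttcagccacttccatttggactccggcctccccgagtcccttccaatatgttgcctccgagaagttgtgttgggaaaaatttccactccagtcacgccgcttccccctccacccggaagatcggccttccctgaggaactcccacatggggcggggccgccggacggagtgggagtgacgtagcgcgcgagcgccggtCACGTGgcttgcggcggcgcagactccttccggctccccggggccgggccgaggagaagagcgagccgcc
Utp14b, chr1:78658190-78658489: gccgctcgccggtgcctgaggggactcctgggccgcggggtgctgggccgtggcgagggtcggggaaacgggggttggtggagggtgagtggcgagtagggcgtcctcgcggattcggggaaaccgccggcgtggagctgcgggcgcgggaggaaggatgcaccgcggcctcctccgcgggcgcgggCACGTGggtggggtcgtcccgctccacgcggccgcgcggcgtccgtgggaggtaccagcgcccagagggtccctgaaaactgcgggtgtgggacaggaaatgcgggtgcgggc
Utp14a, chrX:48256684-48256983: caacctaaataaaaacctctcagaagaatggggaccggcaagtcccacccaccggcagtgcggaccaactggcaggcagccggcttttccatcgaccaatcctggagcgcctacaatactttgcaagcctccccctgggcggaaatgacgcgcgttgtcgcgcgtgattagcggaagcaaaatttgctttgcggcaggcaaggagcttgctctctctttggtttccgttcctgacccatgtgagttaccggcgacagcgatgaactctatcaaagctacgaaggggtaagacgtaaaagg
The Utp14a window held no CACGTG. A match is a description of letters, not of a bound site.

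CCG-1423 was set beside vehicle in ASZ001 cells. Most members were higher with CCG-1423: 28 of 38 rose, 5 fell and 5 did not pass, with limma and a Benjamini-Hochberg adjusted p below 0.05 over all 12775 genes tested. In this comparison 85.3% of all genes tested passed, 42.8% higher and 42.6% lower, so the number that passed is near that of all genes and the direction is not. The median log2 fold change of the members was 0.32, beside 0.00 for all genes tested. Changes were mostly small, since 1 member rose and 1 fell by 2-fold or more, against 26.9% of all genes in either direction. Groups did not overlap for 33 members, where 85.8% of all genes did so. Members took 0.336% to 0.343% of reads in vehicle and 0.397% to 0.435% in CCG-1423 libraries. Small subunit factors had the highest median by role, 0.58, with 12 of 15 higher and 2 lower. RNA polymerase I genes divided, with 4 of 7 higher and 2 lower.

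**Figure D1:**
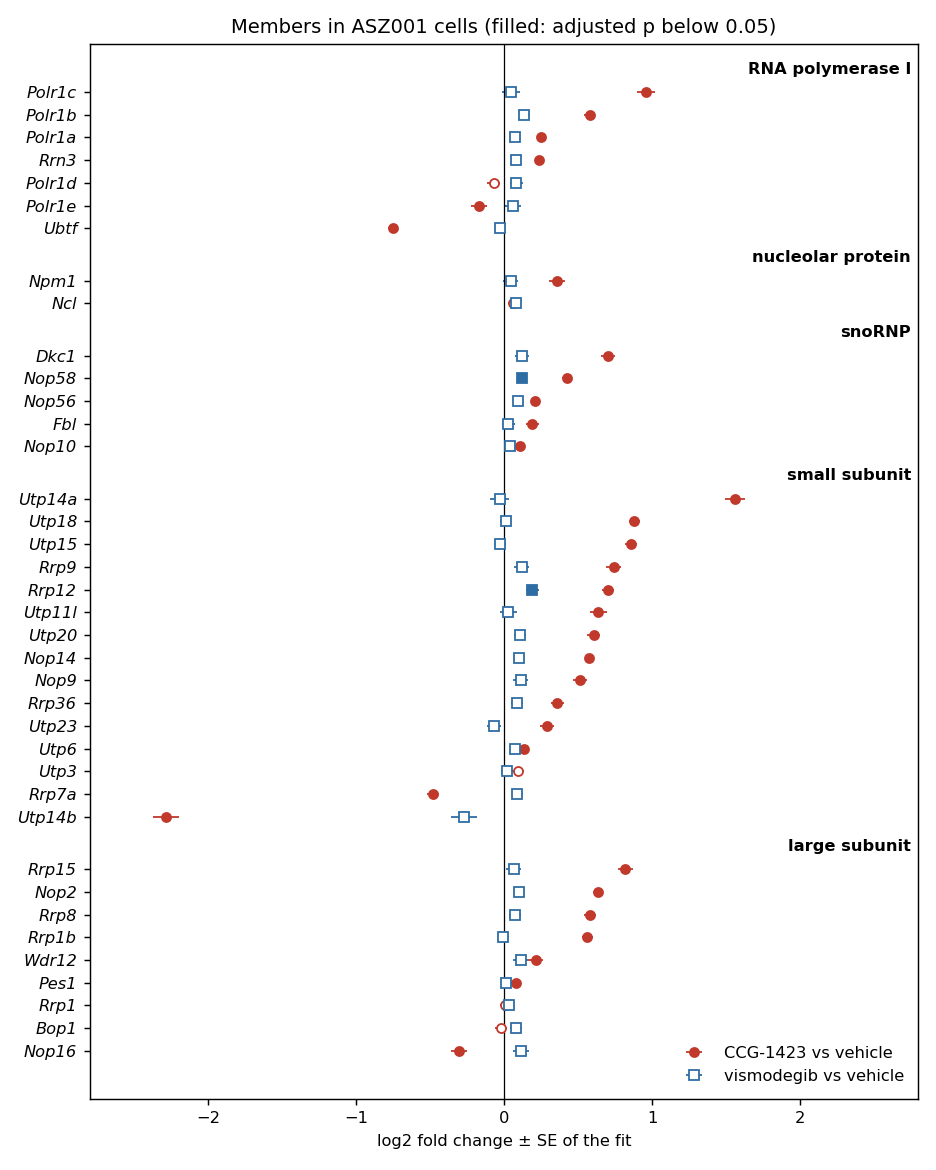
Log2 fold change against vehicle of the 38 members in ASZ001 cells, by role. Red circles are CCG-1423 and blue squares vismodegib, bars are the standard error of the limma fit and filled symbols passed. The red symbols reach from -2.28 for Utp14b to 1.56 for Utp14a, and the blue ones stay near 0.

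Within RNA polymerase I, Ubtf, the factor that coats active ribosomal DNA, had 4350, 4450 and 4494 normalized counts in the vehicle libraries and 2718, 2614 and 2575 in the CCG-1423 libraries. Every CCG-1423 library was below every vehicle library, and the log2 fold change was -0.75 ± 0.03 (SE; limma, adjusted p = 2.97e-12). Polr1e, a polymerase-associated subunit, also fell, by 0.17 on the log2 scale (adjusted p = 0.00998, limma), from 698, 626 and 685 to 590.0, 583 and 613. Polr1c, a subunit shared with RNA polymerase III, had the largest rise of this role, from 1533, 1511 and 1505 to 2604, 3112 and 3160 (0.96 ± 0.06, adjusted p = 3.71e-10, limma). CCG-1423 library 1 was the lowest of its group for Polr1c but still above all vehicle libraries. Polr1d, the other subunit shared with RNA polymerase III, overlapped between groups at 6067, 5993 and 6184 and 5244, 5990 and 6181 (-0.07 ± 0.05, adjusted p = 0.164, limma). Polr1a, the largest subunit, had 5146, 5326 and 5532 in vehicle and 6273, 6560 and 6234 with CCG-1423 (0.25 ± 0.03, adjusted p = 2.54e-06, limma). Polr1b, the second-largest subunit and part of the active centre, rose more, from 1633, 1555 and 1668 to 2463, 2426 and 2362 (0.58 ± 0.04, adjusted p = 9.08e-10, limma). Rrn3, the initiation factor, rose from 4508, 4312 and 4444 to 5195, 5278 and 5171 (0.24 ± 0.03, adjusted p = 1.21e-06, limma). For Polr1a, Polr1b and Rrn3 the groups did not overlap.

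Of the abundant nucleolar proteins, Npm1 (nucleophosmin, a histone and ribosomal protein chaperone) rose and Ncl (nucleolin, which binds the precursor RNA) did not pass. Npm1 had 22949, 22785 and 22698 in vehicle and 26074, 31051 and 30874 with CCG-1423 (0.36 ± 0.05, adjusted p = 9.08e-06, limma). The first CCG-1423 library was again the lowest of its group, and the groups did not overlap. Ncl had 20472, 20325 and 20095 in vehicle and 20390, 21695 and 21497 with CCG-1423, so the groups overlapped (0.06 ± 0.03, adjusted p = 0.0918, limma). Without CCG-1423 library 1 Ncl passed at 0.09 (adjusted p = 0.00378, limma), and it also passed under quantile normalization and both total-read scalings. Npm1 has processed pseudogenes of nearly the same sequence, so its count is uncertain where reads could be placed on them.

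All 5 snoRNP proteins were higher with CCG-1423. Dkc1, the pseudouridine synthase of the H/ACA snoRNPs, went from 928, 912 and 899 to 1492, 1427 and 1540 (0.70 ± 0.04, adjusted p = 4.53e-10, limma). Nop58, a core protein of the box C/D snoRNPs, went from 3164, 3120 and 3134 to 4322, 4061 and 4296 (0.43 ± 0.03, adjusted p = 6.79e-09, limma). The other members of this role moved less. Nop56, the partner of Nop58, had 2888, 2929 and 2961 and then 3303, 3438 and 3412 (0.21 ± 0.03, adjusted p = 1.03e-05, limma). Fbl, the box C/D methyltransferase, had 2763, 2704 and 2781 and then 2885, 3217 and 3327 (0.19 ± 0.04, adjusted p = 0.00101, limma). Groups did not overlap for any of these 4 genes. Nop10, a small H/ACA protein, had 1496, 1435 and 1524 and then 1536, 1614 and 1640, a difference of 0.10 ± 0.04 (adjusted p = 0.0214, limma). Nop10 no longer passed under quantile normalization (adjusted p = 0.124, limma), without vehicle library 2 or without CCG-1423 library 2 or 3, the last 3 with adjusted p from 0.0533 to 0.105 (limma).

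Among small subunit factors, the largest changes of all members were in a pair of near copies. Utp14a, an X-linked processome protein that activates a helicase, rose from 409, 386 and 433 to 1114, 1278 and 1242 (1.56 ± 0.06, adjusted p = 2.42e-12, limma). Utp14b, its retrogene on chromosome 1, known for its role in sperm stem cells, fell from 457, 469 and 487 to 104, 100.4 and 84.4 (-2.28 ± 0.09, adjusted p = 9.65e-13, limma). The groups of either gene did not overlap, and the ratio of Utp14a to Utp14b reads went from 0.823 to 0.896 in vehicle to 10.7 to 14.7 with CCG-1423. The sources used here do not say how the counting divided reads between such copies. The RefSeq gene record of Utp14b begins at the same base as that of Acsl3, a fatty acid activating enzyme, and lies within it, so reads over their common part cannot be told apart. Acsl3, looked up after these values were seen, had 4927, 4901 and 4880 in vehicle and 3243, 3876 and 3814 with CCG-1423 (-0.43 ± 0.05, adjusted p = 8.35e-07, limma), a smaller fall than that of Utp14b.

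**Figure D2:**
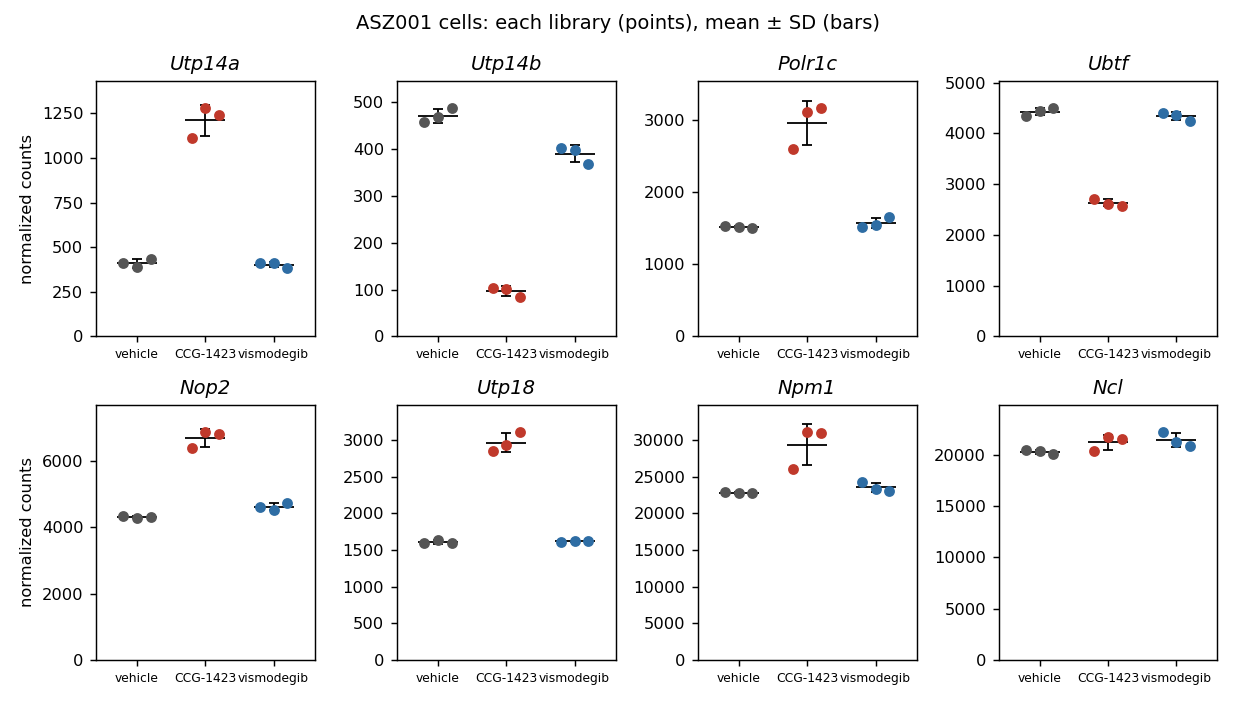
Normalized counts of 8 members in each ASZ001 library (points), with the mean and SD of each group of 3 (bars) on linear axes that start at 0. Utp14a, Polr1c, Nop2, Utp18 and Npm1 lie higher with CCG-1423 than in both other groups, Utp14b and Ubtf lie lower, and Ncl overlaps.

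Utp20, a scaffold of the processome, went from 3556, 3456 and 3695 to 5863, 5134 and 5325 (0.61 ± 0.04, adjusted p = 1.64e-09, limma). Rrp9, which binds the U3 snoRNA, went from 770.2, 727 and 728 to 1162, 1283 and 1280 (0.74 ± 0.05, adjusted p = 1.12e-09, limma). Neither pair of groups overlapped. Utp18, Utp15, Rrp12, Utp11l, Nop14 and Nop9 also rose, by 0.51 to 0.88 on the log2 scale, and Rrp36, Utp23 and Utp6 by 0.13 to 0.36. Rrp7a fell from 2416, 2365 and 2284 to 1760, 1629 and 1674 (-0.48 ± 0.04, adjusted p = 6.89e-09, limma), with no overlap. Utp3 did not pass (0.09 ± 0.04, adjusted p = 0.0645, limma).

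Among large subunit factors 6 of 9 rose and 1 fell. Pes1, Bop1 and Wdr12, which form the PeBoW complex, did not move alike. Wdr12 had 837, 797 and 844 in vehicle and 939, 971 and 966 with CCG-1423 (0.21 ± 0.05, adjusted p = 0.00111, limma). Pes1 had 5046, 4881 and 5086 and then 5194, 5200 and 5460 (0.08 ± 0.03, adjusted p = 0.0278, limma). Bop1 had 2927, 2864 and 2862 and then 2787, 2835 and 2898, and its groups overlapped (-0.02 ± 0.04, adjusted p = 0.615, limma). Pes1 no longer passed without vehicle library 2 (adjusted p = 0.128, limma) or CCG-1423 library 3 (adjusted p = 0.13, limma). Nop2, a methyltransferase of the large subunit RNA, showed a larger rise, from 4339, 4261 and 4301 to 6368, 6855 and 6806 (0.63 ± 0.03, adjusted p = 4.01e-11, limma). Rrp1b, a nucleolar protein that also binds chromatin, rose from 1394, 1411 and 1392 to 2138, 2070 and 1988 (0.56 ± 0.04, adjusted p = 8.32e-10, limma). Both had no overlap between groups. Rrp15 and Rrp8 rose by 0.82 and 0.58, and Rrp1 did not pass (0.00 ± 0.03, limma). Nop16 fell from 1196, 1133 and 1150 to 941, 912 and 961 (-0.31 ± 0.05, adjusted p = 5.36e-05, limma), again without overlap.

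Further genes of the same pathway were also more often higher than lower. Of 106 other ribosome biogenesis genes tested, 69 were higher and 25 lower with CCG-1423, with a median of 0.41. Of all genes tested 42.8% were higher and 42.6% lower. Xpo1, the nuclear exporter that carries both subunits, had 1.38 ± 0.04, and Tcof1, which works with Ubtf at the ribosomal DNA, had 1.08 ± 0.03. Mybbp1a, a nucleolar Myb-binding protein, had 0.78 ± 0.03. The largest falls by p were Cd3eap, an RNA polymerase I subunit, at -1.41 ± 0.05, Nvl, an ATPase of large subunit assembly, at -1.08 ± 0.05, and Polr2l, a subunit common to the nuclear RNA polymerases, at -0.97 ± 0.05. Among genes listed for every comparison, Heatr1 of the processome had 0.86 ± 0.03, Nolc1 0.41 ± 0.03, and Gar1 of the H/ACA snoRNPs 0.65 ± 0.07. The helicase Ddx21 was lower at -0.32 ± 0.04, and Nhp2 of the H/ACA snoRNPs did not pass at -0.07 ± 0.05.

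Myc rose from 4056, 4018 and 4004 to 8166, 8694 and 8836 (1.09 ± 0.03, adjusted p = 3.56e-14, limma), while Mycn was too low to be tested in the cells, at 0 to 3.35 normalized counts. Of the proteins that pair with Max at E-boxes, Mxd4 fell from 3266, 3233 and 3234 to 1645, 1585 and 1635, Mxi1 and Mxd1 fell by 0.20 and 0.15 on the log2 scale, and Mnt rose by 0.51. Max itself fell by 0.33. Of 15 RNA polymerase III genes, 7 were higher and 6 lower, where 42.8% of all genes tested were higher and 42.6% lower. Of 20 proliferation genes, 16 were higher and 3 lower, and their summed level was 40657 to 43207 in vehicle and 56644 to 61945 with CCG-1423. All 6 basal keratinocyte markers were lower, with a summed level of 1304200 to 1335600 in vehicle and 267270 to 278860 with CCG-1423. The part of these shifts in the members' values was not tested.

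Vismodegib was set beside the same vehicle libraries, so its comparison and that of CCG-1423 share controls. Of the 38 members 2 rose, none fell and 36 did not pass (limma), where 5.50% of all genes tested passed, 1.58% higher and 3.92% lower. Rrp12, a factor in export of the small subunit, had 1659, 1594 and 1664 in vehicle and 1886, 1796 and 1938 with vismodegib (0.19 ± 0.04, adjusted p = 0.0113, limma). Nop58 had 3487, 3303 and 3465 with vismodegib, beside the vehicle values above (0.12 ± 0.03, adjusted p = 0.0468, limma). Neither gene's groups overlapped. These calls were fragile: between 0 and 11 members passed when 1 library was left out, 0 without vehicle library 2 or vismodegib library 3, and 11 without CCG-1423 library 1, where 12.2% of all genes tested passed.

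The other members gave small values, mostly above 0. The log2 fold change was positive for 32 of 38, with a median of 0.08, beside 0.01 for all genes tested. An unadjusted p below 0.05 was seen for 18 members, where 18.5% of all genes had one. Groups did not overlap for 19 members that were higher and 1 that was lower, where 16.0% and 14.0% of all genes did so. Counts scaled to total reads gave 23 members higher instead of 2, and 25.3% of all genes tested passed under it. The same scaling with Rn45s left out gave 3 members and 5.22% of all genes. That scaling moved the median of all genes by 0.08 with Rn45s and by 0.01 without it.

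By gene, in vismodegib libraries Polr1a had 5635, 5562 and 5669 (0.08 ± 0.03), Polr1b 1844, 1734 and 1763 (0.14 ± 0.04) and Rrn3 4657, 4623 and 4736 (0.08 ± 0.03). These 3 lay above every vehicle library, though none passed (adjusted p = 0.0534 to 0.219, limma). Ubtf had 4401, 4373 and 4245 and overlapped vehicle (-0.03 ± 0.03). Ncl had 22201, 21243 and 20828 (0.08 ± 0.03) and Npm1 24261, 23316 and 23005 (0.04 ± 0.05), both just above the vehicle range. Nop56 had 3183, 3087 and 3104 (0.09 ± 0.03), Dkc1 1034, 972 and 973 (0.12 ± 0.04), Fbl 2824, 2724 and 2874 (0.03 ± 0.04) and Nop10 1523, 1540 and 1514 (0.04 ± 0.04). Of these snoRNP genes Nop56 and Dkc1 lay above vehicle, and Fbl and Nop10 overlapped it. Utp20 had 3852, 3879 and 3808 (0.11 ± 0.04) and Rrp9 786, 807 and 824 (0.12 ± 0.05), above vehicle in every library.

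Utp14a had 409, 409 and 385 with vismodegib and overlapped vehicle (-0.03 ± 0.06). Utp14b had 403, 397 and 369, below every vehicle library, and was the 1 member that was lower without overlap (-0.27 ± 0.09, adjusted p = 0.0929, limma). The ratio of Utp14a to Utp14b reads was 1.02 to 1.04. Nop2 had 4603, 4516 and 4726 (0.10 ± 0.03) and Wdr12 957, 851 and 876 (0.11 ± 0.05), above the vehicle range. Pes1 had 5068, 4956 and 5108 (0.01 ± 0.03), Bop1 2879, 3007 and 3263 (0.08 ± 0.04) and Rrp1b 1414, 1395 and 1376 (0.00 ± 0.04), and all 3 overlapped vehicle.

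Rn45s moved further with vismodegib than any of the 38 members. This precursor of ribosomal RNA took 5.81% to 6.70% of reads at genes in vehicle, 1.39% to 1.58% with vismodegib and 6.62% to 10.4% with CCG-1423. Its normalized counts were 2088100, 2434900 and 2365700 in vehicle, 472400, 543780 and 514900 with vismodegib and 3707000, 2770000 and 2308000 with CCG-1423. All 3 vismodegib libraries were far below the others, and the log2 fold change against vehicle was -2.17 ± 0.14 (adjusted p = 1.44e-07, limma). With CCG-1423 it was 0.33 ± 0.14 (adjusted p = 0.0388, limma), and the groups overlapped. Rn45s stands for a repeated locus, and the sources used here do not say how ribosomal RNA was removed before sequencing. Myc did not pass with vismodegib, at 0.05 ± 0.03, and Mxi1, a Max partner, fell by 0.24 on the log2 scale. Of the 106 other ribosome biogenesis genes, 5 were higher and none lower, where 1.58% of all genes tested were higher and 3.92% lower. Among the 5 were Heatr1 at 0.13 ± 0.03, Exosc7 of the RNA exosome at 0.27 ± 0.06 and Mybbp1a at 0.10 ± 0.03. These calls were fragile, since 0 to 16 of the 106 passed when 1 library was left out. The 16 were seen without CCG-1423 library 1, where 12.2% of all genes tested passed. Tcof1 (0.02 ± 0.03), Nolc1 (0.06 ± 0.03), Gar1 (-0.08 ± 0.07), Nhp2 (0.03 ± 0.05) and Ddx21 (0.07 ± 0.04) did not pass.

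**Figure D3:**
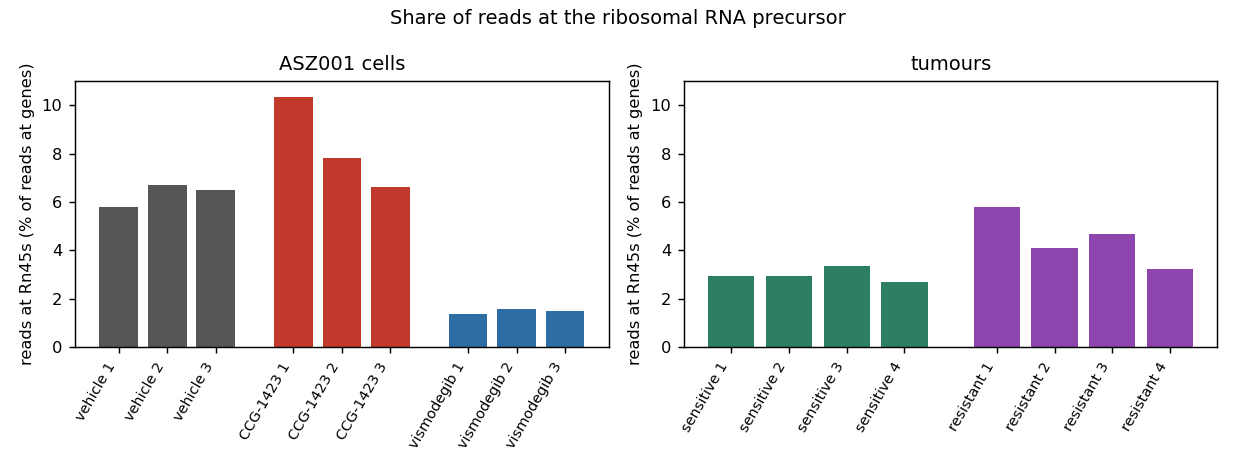
Share of reads at genes that fell on Rn45s, the ribosomal RNA precursor, in each of the 9 ASZ001 libraries (left) and 8 tumour libraries (right), in percent, with bars from 0. The 3 vismodegib libraries lie at 1.39% to 1.58%, below all 14 others.

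Set directly against vismodegib, CCG-1423 gave 24 members higher, 7 lower and 7 that did not pass (limma), where 84.8% of all genes tested passed, 42.4% in either direction. The median difference was 0.29. Doses and times are not given, so this sets 2 treatments side by side and not 2 compounds at matched exposure. Utp14a had 1.59 ± 0.06 and Utp14b -2.01 ± 0.09, followed by Polr1c at 0.91 ± 0.06 and Ubtf at -0.72 ± 0.03. Rrp7a, Nop16 and Polr1e were also lower, as were Polr1d at -0.15 ± 0.05 (adjusted p = 0.00597, limma) and Bop1 at -0.10 ± 0.04 (adjusted p = 0.0312, limma). The Bop1 call was lost without vismodegib library 3 (-0.051, adjusted p = 0.206, limma), without CCG-1423 library 1 or 2, with only the 2 groups compared, and under total-read scaling without Rn45s (-0.045, adjusted p = 0.3, limma). Among the key members Polr1a had 0.18 ± 0.03, Polr1b 0.44 ± 0.04, Rrn3 0.16 ± 0.03 and Npm1 0.31 ± 0.05, all higher with CCG-1423. Of the snoRNP proteins Dkc1 had 0.58 ± 0.04, Nop58 0.31 ± 0.03, Fbl 0.16 ± 0.04 and Nop56 0.11 ± 0.03, and Nop10 did not pass at 0.06 ± 0.04. Nop56 lost its call under total-read scaling (0.068, adjusted p = 0.0759, limma), while Nop10 passed under that scaling without Rn45s (0.12, adjusted p = 0.00784, limma) and without CCG-1423 library 1 (adjusted p = 0.0349, limma). Of the subunit factors Utp20 had 0.50 ± 0.04, Rrp9 0.62 ± 0.05, Nop2 0.53 ± 0.03 and Rrp1b 0.56 ± 0.04. Pes1 at 0.07 ± 0.03, Wdr12 at 0.10 ± 0.05 and Ncl at -0.02 ± 0.03 did not pass. Pes1 and Wdr12 did pass under total-read scaling without Rn45s (0.12 and 0.16), Pes1 also without CCG-1423 library 1 or 2 and Wdr12 without vismodegib library 1. Of the 106 other genes 68 were higher and 28 lower, led by p by Xpo1 (1.39 ± 0.04), Tcof1 (1.06 ± 0.03) and Gnl3, or nucleostemin, (1.31 ± 0.05), and by Cd3eap (-1.45 ± 0.05), Nvl (-1.11 ± 0.05) and Polr2l (-0.96 ± 0.05). Heatr1 (0.74 ± 0.03), Nolc1 (0.35 ± 0.03) and Gar1 (0.73 ± 0.07) were higher, Ddx21 (-0.38 ± 0.04) was lower and Nhp2 (-0.10 ± 0.05) did not pass. Myc (1.04 ± 0.03) and Rn45s (2.50 ± 0.14) were higher with CCG-1423.

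Resistant and sensitive tumours were compared next. With all 8 tumours none of the 38 members passed (limma), where 0.113% of 15076 genes tested passed, 0.0332% higher and 0.0796% lower. At an unadjusted p below 0.05 there were 7 members, 6 higher in resistant tumours and 1 lower, where 25.1% of all genes lay under that limit. edgeR called 0 members and DESeq2 called 1, Rrn3, lower by 1.02 on the log2 scale (adjusted p = 0.0464), where DESeq2 called 10.9% of all genes and edgeR 0 genes. The log2 fold change was positive for 27 of 38, with a median of 0.19, beside 0.03 for all genes. Groups did not overlap for 3 members, Rrp1b higher and Rrn3 and Ubtf lower, where 7.90% of all genes did so. In tissue, fewer cells of a type and less RNA per cell cannot be told apart.

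Without sensitive tumour 4, 15 members were higher in resistant tumours, 1 was lower and 22 did not pass (limma), where 38.6% of 14918 genes tested passed, 20.6% higher and 18.0% lower. The median was 0.29, beside 0.03 for all genes. Npm1, Nop56, Nop10 and Polr1a were the 4 members that rose by 2-fold or more and Rrn3 the 1 that fell by as much, against 23.1% of all genes in either direction. Groups did not overlap for 18 members that were higher and 2 that were lower, where 24.6% and 22.2% of all genes did so. By role, 4 of 5 snoRNP proteins, both nucleolar proteins, 2 of 7 RNA polymerase I genes, 4 of 15 small subunit factors and 3 of 9 large subunit factors were higher. The small subunit factors had the highest median of the roles with CCG-1423, and here their median was 0.15. Here the 2 nucleolar proteins had the highest median, 1.08, followed by the snoRNP proteins at 0.95. The RNA polymerase I genes had the lowest, -0.01.

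Polr1a had 855, 845 and 889 in sensitive tumours 1 to 3, 2455 in the fourth sensitive tumour and 1980, 1764, 1843 and 2167 in resistant tumours. Sensitive tumour 4 was the highest of all 8, and the difference was 0.79 ± 0.33 with it (adjusted p = 0.187, limma) and 1.16 ± 0.13 without it (adjusted p = 4.42e-04, limma). Polr1b had 147, 129 and 202, then 207, and 172, 181, 177 and 211 in resistant tumours, which overlapped (0.14 ± 0.22 and 0.24 ± 0.21). Polr1d passed without sensitive tumour 4, at 0.83 ± 0.20 (adjusted p = 0.0126, limma), but not with all 8 tumours. Ubtf had 1869, 1796 and 1682, then 1820, and 1580, 1291, 1649 and 1346 in resistant tumours. It was lower in every resistant tumour, also against sensitive tumour 4, without passing (-0.30 ± 0.14, adjusted p = 0.214, and -0.29 ± 0.14, adjusted p = 0.128, limma). Without sensitive tumour 4 it did pass under total-read scaling (-0.43, adjusted p = 0.0332, limma) and under that scaling without Rn45s (-0.41, adjusted p = 0.0408, limma).

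Rrn3 went the other way from the majority. It had 2987, 2108 and 985 in sensitive tumours 1 to 3, 1195 in the fourth sensitive tumour and 855, 966, 845 and 977 in resistant tumours. Sensitive tumours 1 and 2 were far above the rest, and sensitive tumour 3 lay just above the highest resistant tumour. The log2 fold change was -0.86 ± 0.32 with all 8 (adjusted p = 0.164, limma) and -1.01 ± 0.32 without sensitive tumour 4 (adjusted p = 0.0373, limma). The call was lost when any 1 of the remaining tumours except sensitive tumour 3 was also left out. Without sensitive tumour 1 the value was -0.66 (adjusted p = 0.123, limma).

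Npm1 had 8854, 6615 and 8492 in sensitive tumours 1 to 3, 24169 in the fourth sensitive tumour and 22058, 16926, 19809 and 19188 in resistant tumours (0.89 ± 0.37 with all 8, adjusted p = 0.182, and 1.29 ± 0.16 without sensitive tumour 4, adjusted p = 8.02e-04, limma). Ncl had 9337, 8408 and 8714, then 19526, and 19284, 14729, 15581 and 15435 in resistant tumours (0.59 ± 0.28, adjusted p = 0.223, and 0.88 ± 0.15, adjusted p = 0.00252, limma). For both, sensitive tumour 4 was above every resistant tumour, and sensitive tumours 1 to 3 were below all of them.

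**Figure D4:**
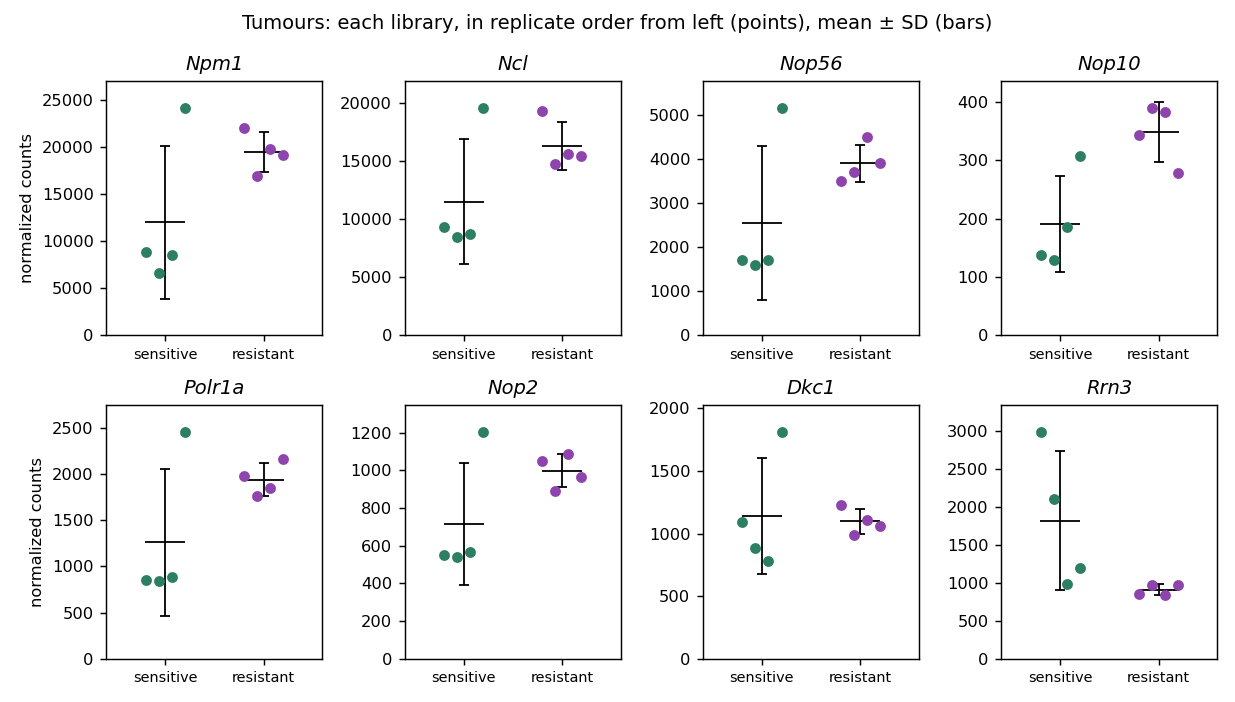
Normalized counts of 8 members in each tumour library (points) with the mean and SD of each group of 4 (bars), on linear axes from 0. For Npm1, Ncl, Nop56, Polr1a and Nop2 the fourth sensitive tumour lies above all resistant tumours and the other 3 sensitive ones lie below them. For Rrn3 all resistant tumours lie lowest.

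Of the snoRNP proteins, 4 of 5 were lower in sensitive tumours 1 to 3 than in every resistant tumour, and Dkc1 was not. Nop56 had 1710, 1604 and 1717 in sensitive tumours 1 to 3, 5158 in the fourth sensitive tumour and 3505, 3697, 4496 and 3918 in resistant tumours (0.81 ± 0.36, adjusted p = 0.198, and 1.21 ± 0.13, adjusted p = 4.34e-04, limma). Nop58 had 989, 999 and 1028, then 1856, and 2165, 1649, 2137 and 1886 (0.73 ± 0.23, adjusted p = 0.143, and 0.95 ± 0.14, adjusted p = 0.0014, limma). Fbl had 658, 656 and 682, then 1426, and 1476, 919, 1109 and 1319 (0.56 ± 0.28, adjusted p = 0.239, and 0.83 ± 0.18, adjusted p = 0.00699, limma). For these 3 genes sensitive tumours 1 to 3 were below every resistant tumour and sensitive tumour 4 was within or above their range. Nop10 had 138, 129 and 185, then 308, and 344, 389.6, 383 and 279 (0.95 ± 0.29, adjusted p = 0.142, and 1.21 ± 0.20, adjusted p = 0.00253, limma). Dkc1, which is X-linked, had 1091, 883 and 782, then 1812, and 1225, 992, 1111 and 1063, with overlap (0.02 ± 0.25 and 0.27 ± 0.16, adjusted p = 0.97 and 0.203, limma). With all 8 tumours the sign of Dkc1 was negative under total-read scaling, quantile normalization, edgeR and DESeq2.

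Of the small subunit factors Utp14a, also X-linked, had 556, 549.6 and 624, then 1310, and 1020, 708, 872 and 734 in resistant tumours (0.22 ± 0.29 with all 8, and 0.52 ± 0.16 without sensitive tumour 4, adjusted p = 0.0367, limma). This call was lost without any 1 of sensitive tumours 1 to 3 or resistant tumours 1 and 3 and under other scalings, with adjusted p up to 0.128 (limma). Utp14b overlapped (-0.16 ± 0.23), and the ratio of Utp14a to Utp14b reads was 0.722 to 1.71 in sensitive and 0.903 to 1.67 in resistant tumours. Utp20 had 1105, 1064 and 994, then 1287, and 1128, 1106, 1088 and 1368 (0.08 ± 0.15 and 0.15 ± 0.13), and Rrp9 had 64.5, 49.5 and 67.9, then 93.2, and 76.9, 52.6, 80.9 and 59.3 (-0.01 ± 0.28 and 0.14 ± 0.26). Both overlapped between groups, and with all 8 tumours both had the other sign under at least 1 other scaling. Nop9, Rrp12 and Utp18 passed without sensitive tumour 4, at 0.92 ± 0.15, 0.79 ± 0.22 and 0.77 ± 0.18. With all 8 tumours no small subunit factor was above 0.63 and none passed (lowest adjusted p = 0.207, limma).

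Of the large subunit factors Nop2 had 550.2, 541 and 568 in sensitive tumours 1 to 3, 1203 in the fourth sensitive tumour and 1050, 889.5, 1088 and 964 in resistant tumours (0.57 ± 0.26, adjusted p = 0.215, and 0.85 ± 0.13, adjusted p = 0.00184, limma). The 3 low tumours spread by 541 to 568 only. Pes1 had 488, 524 and 538, then 979, and 808, 669, 756 and 608 (0.22 ± 0.24 and 0.45 ± 0.15, the latter with adjusted p = 0.0407, limma). Its call was lost without any 1 of the remaining tumours except resistant tumour 4, with adjusted p up to 0.125 (limma), and under total-read scaling and quantile normalization. Bop1 had 206, 188 and 306, then 276, and 320.0, 274, 446 and 189 (0.29 ± 0.29 and 0.36 ± 0.30), and Wdr12 had 409.8, 414 and 273, then 491, and 498, 304, 403 and 506 (0.11 ± 0.24 and 0.22 ± 0.24). Both overlapped and did not pass. Rrp1b had 418, 404 and 416, then 436, and 463, 584, 446 and 584, higher in every resistant tumour than in any sensitive one, without passing (0.30 ± 0.16, adjusted p = 0.25, and 0.32 ± 0.16, adjusted p = 0.138, limma). Nop16 passed without sensitive tumour 4 at 0.59 ± 0.20 (adjusted p = 0.0423, limma), but not with all 8 tumours.

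Of the 106 other ribosome biogenesis genes none passed with all 8 tumours by limma, where 0.113% of all genes tested passed. An unadjusted p below 0.05 was seen for 20, where 25.1% of all genes had one. edgeR called 0 and DESeq2 called 3, where DESeq2 called 10.9% of all genes. Without sensitive tumour 4, 42 were higher and 3 lower, where 20.6% of all genes tested were higher and 18.0% lower. Nifk, a nucleolar partner of Ki-67, had 343, 339 and 366 in sensitive tumours 1 to 3, 3607 in the fourth sensitive tumour and 3614, 3020, 3604 and 2296 in resistant tumours (3.14 ± 0.18 without sensitive tumour 4, and 2.30 with all 8). Nhp2 had 1.96 ± 0.18, Ngdn of the processome 1.44 ± 0.18, Tcof1 1.39 ± 0.22, Nolc1 0.91 ± 0.15, Heatr1 0.66 ± 0.20 and Gar1 0.64 ± 0.17, all higher, and Ddx21 did not pass at 0.33 ± 0.17. With all 8 tumours the values were, for Tcof1, 0.89 ± 0.46, Nolc1 0.53 ± 0.34, Heatr1 0.48 ± 0.24, Gar1 0.42 ± 0.24, Nhp2 1.37 ± 0.51 and Ddx21 0.21 ± 0.19. Lower without sensitive tumour 4 were Lsg1, a GTPase of late large subunit maturation, at -1.33 ± 0.31, Surf6 at -0.59 ± 0.16 and Gnl2 at -0.49 ± 0.15. Lsg1 had 3846, 2838.5 and 1419 in sensitive tumours 1 to 3, 1185 in the fourth and 763, 1066.5, 1035 and 1130 in resistant tumours. Sensitive tumours 1 and 2 were thus far above the rest, and with all 8 tumours the value was -1.07. Scaling to total reads turned the division of 42 higher and 3 lower into 28 and 9. It moved the median of all genes by -0.14, and that of members fell from 0.29 to 0.15.

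Myc had 528, 589 and 634 in sensitive tumours 1 to 3, 1117 in the fourth sensitive tumour and 1649, 1335, 1508 and 1051 in resistant tumours. Its log2 fold change was 0.995 with all 8 (adjusted p = 0.139, limma) and 1.23 ± 0.18 without sensitive tumour 4 (adjusted p = 0.00137, limma). Mycn did not pass (0.37 ± 0.44 and 0.59 ± 0.45). Rn45s took 2.71% to 3.36% of reads in sensitive and 3.24% to 5.80% in resistant tumours, with 0.66 ± 0.38 and 0.65 ± 0.32, neither of which passed. Without sensitive tumour 4, 16 of 20 proliferation genes and all 5 neutrophil markers were higher and 5 of 6 basal keratinocyte markers lower in resistant tumours. Of 3 differentiated keratinocyte markers tested 2 were lower. Sums over the 4 such markers measured, tested or not, were 893 to 1905 in sensitive tumours 1 to 3 and 191 to 616 in resistant tumours. Of 6 fibroblast markers 2 were lower, 1 of 5 endothelial markers was higher, and Tnnt3, the 1 skeletal muscle marker tested, was higher at 4.24 ± 0.58. No macrophage, T and NK cell, B cell or melanocyte marker passed, of which only 6, 1, 2 and 1 were tested. The summed level of proliferation genes was 5230 to 8956 in sensitive tumours 1 to 3 and 14693 to 31335 in resistant tumours, that of neutrophil markers 779.98 to 1254 and 8363 to 11482, and that of basal keratinocyte markers 151270 to 220370 and 28461 to 80736. Sensitive tumour 4 had the highest sums of all sensitive tumours for proliferation, 33359, and for neutrophil markers, 17116, and the lowest for basal keratinocyte markers, 75502. No proliferation, neutrophil or keratinocyte gene of these lists was at 0 in all tumours of a group. Their part in the members' differences was not tested.

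CCG-1423 in the cells and resistance in the tumours share no libraries, and both were read for each member, using the tumours without sensitive tumour 4. Of the 28 members higher with CCG-1423 and the 15 higher in resistant tumours, 12 were higher in both: Fbl, Nop56, Nop58, Nop10, Npm1, Polr1a, Nop2, Pes1, Nop9, Rrp12, Utp14a and Utp18. Of 12206 genes tested in both, 10.8% were higher in both. Among the 15 higher in resistant tumours 12 were higher with CCG-1423, a share near the 28 of 38 for all members, and no test of the overlap was made. Rrn3 was higher with CCG-1423 and lower in resistant tumours, and Nop16 the reverse. Another 15 were higher with CCG-1423 alone, among them Polr1b, Polr1c, Dkc1 and Utp20, and Ncl and Polr1d were higher in resistant tumours alone. Those lists say which tests were passed and not that the 2 changes differ, which was not tested. Across the 38 members, which are not independent replicates, the 2 log2 fold changes had a Pearson correlation of 0.24, given as a description. The 4 largest changes in the cells were in Utp14b, Utp14a, Polr1c and Utp18, and the 4 largest in the tumours in Npm1, Nop56, Nop10 and Polr1a.

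**Figure D5:**
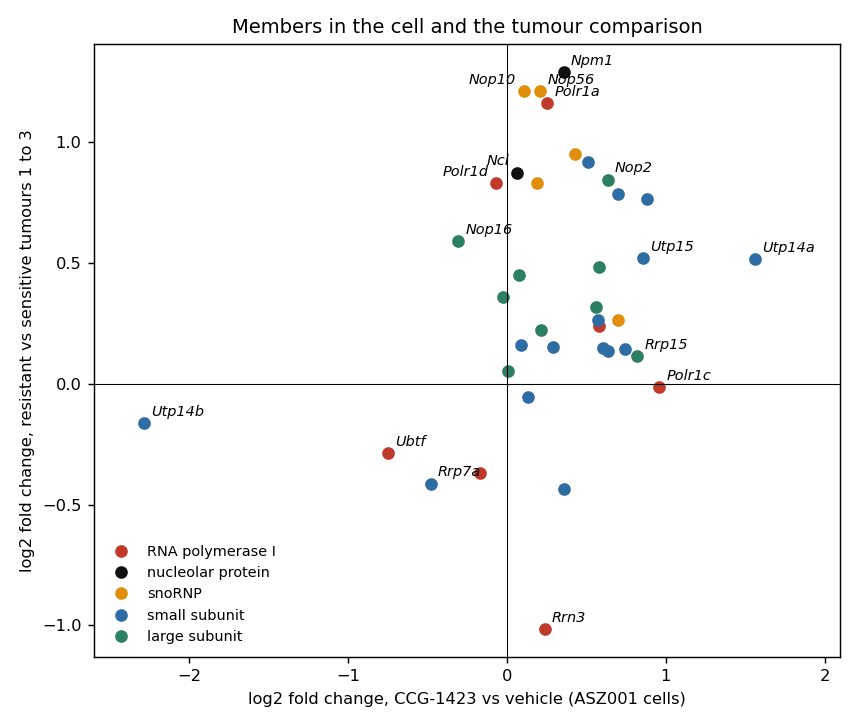
Log2 fold change of each of the 38 members with CCG-1423 in ASZ001 cells (horizontal) and in resistant against sensitive tumours 1 to 3 (vertical), coloured by role. Most points lie above and to the right of 0, Rrn3 lies lowest at -1.01, and Utp14b lies farthest left at -2.28.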

How the data were processed

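RNA was measured by sequencing in 17 libraries, 8 from tumours and 9 from ASZ001 cells, and the 8 exome samples of the series were not analysed here. The deposited signal values are read counts per gene that the authors divided by 1 size factor per library, separately in the tumour and the cell table. 100% of them came out as whole reads, within 0.01 read, once divided by the value of 1 read in each library, and those reads were used only for depth, edgeR and DESeq2. TopHat, DESeq and mm9 are named, with no role or version, in the submitters' processing notes. The gene counter, annotation and strand setting, not given in the sources used here, are unknown. Overlapping genes therefore cannot be told apart. Chi-square divided by its degrees of freedom, between libraries of the same group, ran from 1.84 to 40.9 for cells and from 13.5 to 183.5 for tumours. Libraries of a group differed by more than sampling of reads, which does not say whether they came from separate RNA, cultures or animals.

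Genes that reached a value of 10 in 4 or more tumour libraries, or 3 or more cell libraries, were tested on log2(value + 1) with limma 3.58.1 in R 4.3.3, with a variance trend and Benjamini-Hochberg adjustment over all genes tested, 2-sided, at a threshold of 0.05. Fold changes are on that scale, which understates changes of low genes. The 3 cell groups shared 1 estimate of the spread. All 38 members passed the filter in each comparison. Alternatives were a pseudocount of 0.5, no filter, total-read scaling, quantile normalization, robust variance, edgeR 4.0.16, DESeq2 1.42.0, a replicate block, only the 2 groups compared, and leaving out each library. Total-read scaling without Rn45s was added after seeing the data. The procedure was tested on simulated data with 1 fixed spread and no deviating library. That test therefore does not show how it performs with tumours that vary as these did, sensitive tumour 4 among them.

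Members and lists were chosen with earlier results of these data known, and the other ribosome biogenesis genes are a list of 109 symbols, 107 of them in the tables. Named were 19 key members, in each comparison the 2 members that passed with the largest change in each direction and up to 4 that passed against the majority, the 3 other ribosome biogenesis genes with the smallest p in each direction, and Myc, Mycn, Tcof1, Heatr1, Nolc1, Gar1, Nhp2, Ddx21 and Rn45s. Further members were named by role, and Acsl3 was added after its neighbour's values were seen.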

Additional observations from a re-analysis of the deposited data

Results flagged for a closer look

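In each group of 4 tumours, a member is given here where 1 tumour stood so far from the nearest of the other 3 that the gap exceeded Dixon's limit for 4 samples as a share of the group's whole range. Chance alone passes this limit in about 1 in 20 groups, and 16 of 76 pairs of member and group passed it. In 14 of the 16, sensitive tumour 4 was the highest of the sensitive tumours, and these share 1 library, so they are not 14 separate observations.

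Among the nucleolar and snoRNP proteins, sensitive tumour 4 had 24169 normalized counts of Npm1 (6615 to 8854 in the other 3), 19526 of Ncl (8408 to 9337), 5158 of Nop56 (1604 to 1717), 1856 of Nop58 (989 to 1028) and 1426 of Fbl (656 to 682). Of RNA polymerase I it had 2455 of Polr1a (845 to 889). Of the small subunit factors it had 1358 of Nop14 (882 to 957), 1310.5 of Utp14a (549.6 to 624), 1702 of Utp3 (1037 to 1115), 1151 of Utp6 (859 to 908), 507 of Nop9 (215 to 236) and 449 of Utp18 (179 to 223). Of the large subunit factors it had 1203 of Nop2 (541 to 568) and 979 of Pes1 (488 to 538). The same tumour also had the highest summed proliferation and neutrophil markers of its group, and their part was not tested.

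The other pairs were single genes. Utp14b was lowest in sensitive tumour 1, at 647 beside 762 to 770.05 in the other 3, and Utp20 was highest in resistant tumour 4, at 1368 beside 1088 to 1128.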

How the results depend on the processing

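The count of members that passed stayed within 1.5 times its value under every alternative with CCG-1423 against vehicle, with CCG-1423 against vismodegib, and for the 7 tumours without sensitive tumour 4. With all 8 tumours DESeq2 called 1 member and 3 other ribosome biogenesis genes (10.9% of all genes) where limma called 0, and leaving out 1 tumour gave 0 to 16 members and 0 to 45 other genes, the highest without sensitive tumour 4. For the 7 tumours the other genes numbered 26 (without sensitive tumour 2) to 44. With vismodegib, 2 members and 5 other genes passed. No filter gave 1 and 3 (3.3% of all genes), total-read scaling 23 and 53 (25.3%), and only the 2 groups compared 11 and 17 (13.8%), while quantile normalization and DESeq2 each gave 1 member. The direction also varied: edgeR gave 1 member higher and 1 lower (5.78% of all genes). With only the 2 groups compared, 10 members were higher and 1 lower. Leaving out 1 library gave 0 to 11 members and 0 to 16 other genes, the highest without CCG-1423 library 1. The cause was not tested. Without that library 35 members passed with CCG-1423, and 3 of them by at least 2-fold.

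Among the members named by rule, for which alternatives were computed, signs turned only where the comparison had not passed. With all 8 tumours Dkc1 was -0.091 under total-read scaling, -0.069 with Rn45s left out of it, -0.035 under quantile normalization, -0.074 under edgeR and -0.073 under DESeq2. Utp20 was -0.033 and -0.011 under the 2 total-read scalings, and Rrp9 was 0.024 under quantile normalization. Bop1 with CCG-1423 was 0.013 and 0.043 under the 2 total-read scalings. With vismodegib, total-read scaling gave Ubtf 0.052, Utp14a 0.053 and Rrp1b 0.078, and without Rn45s Rrp1b was 0.0050. Ncl in CCG-1423 against vismodegib was 0.040 without Rn45s and 0.051 under quantile normalization. Leaving out 1 library with all 8 tumours gave -0.14 to 0.27 for Dkc1, -0.16 to 0.14 for Rrp9, -0.00047 to 0.15 for Utp20 and -0.058 to 0.26 for Wdr12. With vismodegib it gave -0.0063 to 0.024 for Pes1, -0.014 to 0.0054 for Rrp1b and -0.071 to 0.012 for Utp14a, and in CCG-1423 against vismodegib -0.036 to 0.012 for Ncl.

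Total-read scaling moved the median of all genes by -0.11 with 8 tumours and -0.14 with 7, and without Rn45s by -0.12 with 7. Same-numbered libraries deviated from their group means with correlations of -0.15 to 0.14, and different-numbered ones with -0.16 to 0.20. With so few libraries in a group, these values cannot say whether same-numbered libraries were paired or shared a batch. With the replicate number as a block, 34 members passed with CCG-1423 in place of 33, and with vismodegib 2 members and 3 other genes. For the 7 tumours the block left the count at 16 but not the same members: Bop1 passed, at 0.57 (adjusted p = 0.0469, limma) in place of 0.36, and another member did not.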
